A study of Drosophila melanogaster with 46 samples.

Results

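DGRP_28275 is an inbred Drosophila melanogaster line, here set against 22 other lines of the same panel for the accessibility of its chromatin in the eye-antennal disc. The Drosophila Genetic Reference Panel (DGRP) is a collection of inbred strains founded from flies of a wild population. The series set out to find genetic differences between strains that go with differences in accessibility. Of its 46 samples, 31 are libraries of DGRP lines, and 2 of these come from DGRP_28275. The first DGRP_28275 library, replicate 1, has a plain title. The title of the second, replicate 2, ends in IR, a suffix that the labels leave unexplained. The other 22 lines have 29 libraries, 15 without and 14 with the suffix. All of them were made from discs dissected by hand from wandering third-instar larvae kept on normal food, with no treatment and no allele named beyond the line itself. The labels do not say how many larvae went into a library or whether the 2 libraries of the line came from separate dissections. The p-values below for regions rest on the spread between the 2 libraries of a line, in the 8 lines with 2. That spread may be technical, and these p-values do not measure the spread among lines.

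ATAC-seq uses the Tn5 transposase, which inserts sequencing adapters where DNA is not covered by nucleosomes, so that the number of reads over a stretch of the genome reflects how open it is. Open stretches include promoters and enhancers, the sites at which transcription factors bind. The eye-antennal disc is an epithelial sac that forms the adult eye, antenna and head capsule, and in wandering larvae the morphogenetic furrow, the front of neuronal differentiation, crosses its eye portion. The disc holds several cell types, and in such bulk tissue fewer cells that open a region and less opening per cell cannot be told apart.

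The deposited table counts reads in 30774 regions on the genome build dm3, and 30773 of them were tested. A region was kept for DGRP_28275 where its 2 libraries deviated the same way from the mean of the other lines' libraries of their own kind, with or without the suffix. This held in 20581 regions, or 66.9% of those tested, with both libraries higher in 9271 and both lower in 11310. In the remaining 10192 regions the 2 libraries went opposite ways. Both libraries lay more than 0.5 log2 units above the other lines in 2991 regions and as far below them in 916. Beyond 1 log2 unit the numbers were 836 above and 98 below, and beyond 2 log2 units 8 above and 5 below. The kept region nearest the boundary, 2L:847643-848812, deviated by -3.57e-05 in replicate 1 and -0.163 in replicate 2. The nearest region not kept, 2R:19911526-19912310, deviated by 8.03e-06 in replicate 1 and by -0.23 in replicate 2. These deviations chose the regions and are given as a description.

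The 2 DGRP_28275 libraries held 10279509 counts in replicate 1 and 6283136 in replicate 2, against 1110755 to 12758783 in the 29 others. The chi-square of the counts of the pair was 9.22 per degree of freedom, more than sampling error alone gives. This is a description with no p, and both libraries were kept. Along the first principal component of the libraries, which held 40.0% of the variance, replicate 1 scored -28.7 and replicate 2 scored -36.5, against -69.7 to 37.8 with a median of 18.6 in the others. Both thus lay in the lower part of this component. Among libraries of the same kind, 5 of 15 scored at or below replicate 1, and 1 of 14 scored at or below replicate 2. The mean count per region on X relative to the large autosomal arms was 0.991 in replicate 1 and 0.837 in replicate 2, against 0.708 to 1.08 in the others.

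The question of the main comparison was which regions were more or less open in DGRP_28275 than in the other lines. At 11 regions the line had more reads than the other lines and at 4 it had fewer, by 1.42 to 3.80 log2 units. The genome sequence of the line was not examined, and whether its own sequence alters the read counts at these regions was not tested. At 10 of the 15 the difference was at least 4-fold. Values below are CPM, the counts divided by library size after scaling by the TMM method, and a call is an adjusted p under 0.05 in edgeR's quasi-likelihood test with Benjamini-Hochberg adjustment over all tested regions. The 15 calls made up 0.0487% of the tested regions, the 11 higher ones 0.0357% and the 4 lower ones 0.013%. Before adjustment, 2432 regions had a p under 0.05, 1592 of them higher and 840 lower in DGRP_28275. All 15 also met the rule on direction, which uses the same counts and so adds no support. The called regions had a median length of 500 bp, against 456 bp over all tested regions. For brevity the higher regions are called H1 to H11 and the lower ones L1 to L4, each in order of p. No annotation of dm3 was used here, so they are placed by position and no gene is assigned to them.

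The largest change was a reduction. L2, at 2L:8988741-8989725, had 7.16 CPM in replicate 1 and 4.56 CPM in replicate 2 of DGRP_28275, against a lowest value of 47.4, a median of 88.3 and a highest value of 135 CPM in the other 29 libraries. A region that was open in every other library thus had a small remainder of reads in both DGRP_28275 libraries, with 77 and 30 counts. Its log2 fold change was -3.80 (SE 0.44, edgeR adjusted p = 0.0132). The SD of a single library within its line was 0.47 log2 units. It was taken from the other 7 lines with 2 libraries, with the mean difference by suffix removed. The regions on either side showed no such drop. The one 3232 bp before it had 64.8 and 64.9 CPM in the line, against a median of 72.7 CPM in the others, and the one 7504 bp after it had 17.4 and 16.1 CPM, against 18.4 CPM.

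L1, at 2L:21401416-21401820, had 3.26 and 1.98 CPM in DGRP_28275, against 8.69, 23.4 and 39.3 CPM as the lowest, median and highest of the other libraries (log2 fold change -3.17, SE 0.31, edgeR adjusted p = 0.00685). L3, at 2R:9862397-9863046, had 1.68 and 3.04 CPM in the line, against 3.08, 13.4 and 27.3 CPM in the others (log2 fold change -2.30, SE 0.29, edgeR adjusted p = 0.0208). L4, at 2R:16174364-16174809, had 10.9 and 8.21 CPM in the line, against 19.03, 26.6 and 35.95 CPM in the others (log2 fold change -1.42, SE 0.19, edgeR adjusted p = 0.0287). In each of the 4 lower regions both DGRP_28275 libraries lay below all 29 others. The margin was narrow at L3, where the library of DGRP_25194 had 3.08 CPM, and the DGRP_28275 values there rest on 18 and 20 counts. L4 was the mildest of the 4 and the one in which the other libraries were closest together.

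Among the higher regions, H1 at 3R:9152045-9152593 had 42.5 CPM in replicate 1 and 24.2 CPM in replicate 2 of DGRP_28275, against 0.856, 4.44 and 8.25 CPM as the lowest, median and highest of the others. The line lay 2.84 log2 units above the other lines (SE 0.25, edgeR adjusted p = 0.00388), and its lower library was still well clear of the highest other library. H2, at 2L:6985125-6985629, had 38.7 and 34.04 CPM in the line, against 3.42, 6.59 and 12.2 CPM in the others (log2 fold change 2.38, SE 0.21, edgeR adjusted p = 0.00388). H4, at 2R:10967800-10968299, had 35.6 and 34.3 CPM in the line, against 3.37, 9.32 and 13.1 CPM in the others (log2 fold change 2.03, SE 0.22, edgeR adjusted p = 0.00907). At H2 and H4 the 2 libraries of the line were close to each other and well above the highest other library. H8, at 2L:18036516-18037266, had 28.6 and 27.4 CPM in the line, against 1.03, 6.29 and 11.9 CPM in the others (log2 fold change 2.13, SE 0.27, edgeR adjusted p = 0.0230). H10, at 2L:13340358-13340855, had 18.1 and 16.1 CPM in the line, against 2.71, 5.05 and 9.99 CPM in the others (log2 fold change 1.72, SE 0.23, edgeR adjusted p = 0.0287). These 2 regions repeat the pattern of H2 and H4 at lower levels, with no overlap between the line and the other libraries.

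At 2 further regions the other lines had low counts. H6, at 2R:6715886-6716142, had 9.30 and 14.1 CPM in DGRP_28275, against 0.679, 1.71 and 4.78 CPM in the others (log2 fold change 2.73, SE 0.32, edgeR adjusted p = 0.0132). H9, at X:15527407-15527753, had 10.6 and 14.3 CPM in the line, against 0, 1.70 and 4.19 CPM in the others (log2 fold change 2.99, SE 0.39, edgeR adjusted p = 0.0230). Both regions were short, with 100 and 93 counts at H6 and 114 and 94 counts at H9 in the line. Neither overlapped the range of the other libraries.

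**Figure D1:**
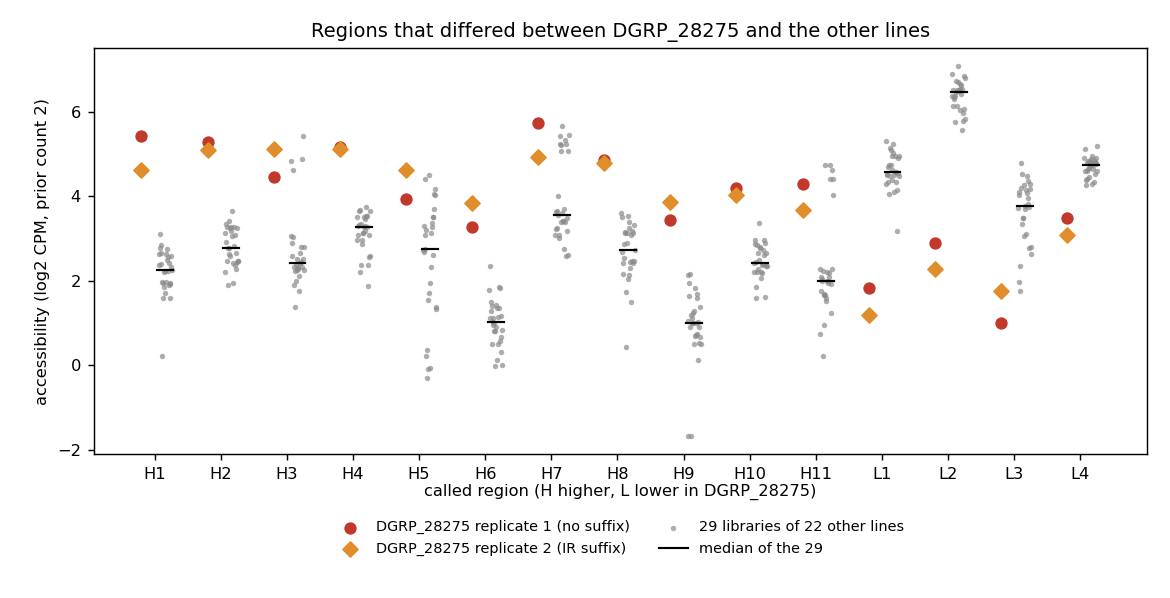
Accessibility (log2 CPM, prior count 2) at the 15 called regions, H1 to H11 higher and L1 to L4 lower in DGRP_28275, with 1 symbol for each DGRP_28275 library, left of 1 grey point for each of the 29 libraries of the other lines and a bar at their median. Both DGRP_28275 libraries lie outside the grey points at 11 regions. Both lie within their range at H3 and H11, and 1 of them does at H5 and at H7.

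At the remaining 4 higher regions DGRP_28275 shared its high level with some other lines. H3, at 2L:10143220-10143861, had 21.8 and 34.7 CPM in the line, against 2.28, 5.03 and 42.5 CPM in the others (log2 fold change 2.12, SE 0.22, edgeR adjusted p = 0.00731). Both libraries of DGRP_29652 and the single libraries of DGRP_25174 and DGRP_25193 reached at least the lower of the 2 DGRP_28275 values there, and the next library stood at 7.97 CPM. H7, at X:3745434-3746020, had 53.3 and 30.2 CPM in the line, against 5.71, 11.5 and 50.5 CPM in the others (log2 fold change 1.54, SE 0.19, edgeR adjusted p = 0.0191). The 9 libraries at or above the lower DGRP_28275 value were both libraries of DGRP_28123, DGRP_28265 and DGRP_55031 and the single ones of DGRP_28202, DGRP_28206 and DGRP_28224, and the next had 15.7 CPM. H11, at 2L:20826253-20826460, had 19.3 and 12.5 CPM in the line, against 0.856, 3.68 and 26.6 CPM in the others (log2 fold change 1.82, SE 0.25, edgeR adjusted p = 0.0296). Here both libraries of DGRP_28265 and DGRP_55031 and those of DGRP_28153 and DGRP_55026 were as high, and the next had 4.52 CPM. In H3, H7 and H11 the 31 libraries thus fell into a low and a high set with a gap between them, and where a line had 2 libraries both stood in the same set. H5, at 3L:12917437-12917843, showed no such gap. It had 14.9 and 24.3 CPM in the line, against 0.503, 6.39 and 22.5 CPM in the others, and 5 other libraries reached the lower DGRP_28275 value (log2 fold change 1.77, SE 0.20, edgeR adjusted p = 0.0103). The contrast sets the line against the mean of 22 lines, so a region that is high in DGRP_28275 and in several other lines can pass it.

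The last called region was H11, and the first not called was 3R:6601717-6602068, with 8.47 and 15.96 CPM in DGRP_28275, against 1.26, 2.89 and 4.57 CPM in the others (log2 fold change 2.08, edgeR adjusted p = 0.0558). The DGRP_28275 values at this uncalled region lay above all 29 others, while those at H11 did not.

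Of the 30 regions directly beside the 15, none was called here. Calls made up 0.0487% of all tested regions, so few would be met among 30 in any case. In the model that included the first component, which called 0.955% of tested regions, 1 of the 30 passed, beside H5. Over all tested regions both DGRP_28275 libraries were higher in 30.1% and lower in 36.8%, and by more than 1 log2 unit in 2.72% and 0.319%. In 13 of the 30 both libraries deviated in the direction of the called region, and 2 deviated by more than 1 log2 unit in that direction in both libraries. These 2 lay beside H3, 8133 bp away with 14.4 and 15.7 CPM in the line against a median of 4.39 CPM in the others, and beside H4, 157 bp away with 8.19 and 6.23 CPM against 3.14 CPM. Gaps to the adjacent regions ran from 157 to 13017 bp with a median of 4387 bp. No 3 called regions of 1 direction lay within 10000 bp steps of each other.

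**Figure D2:**
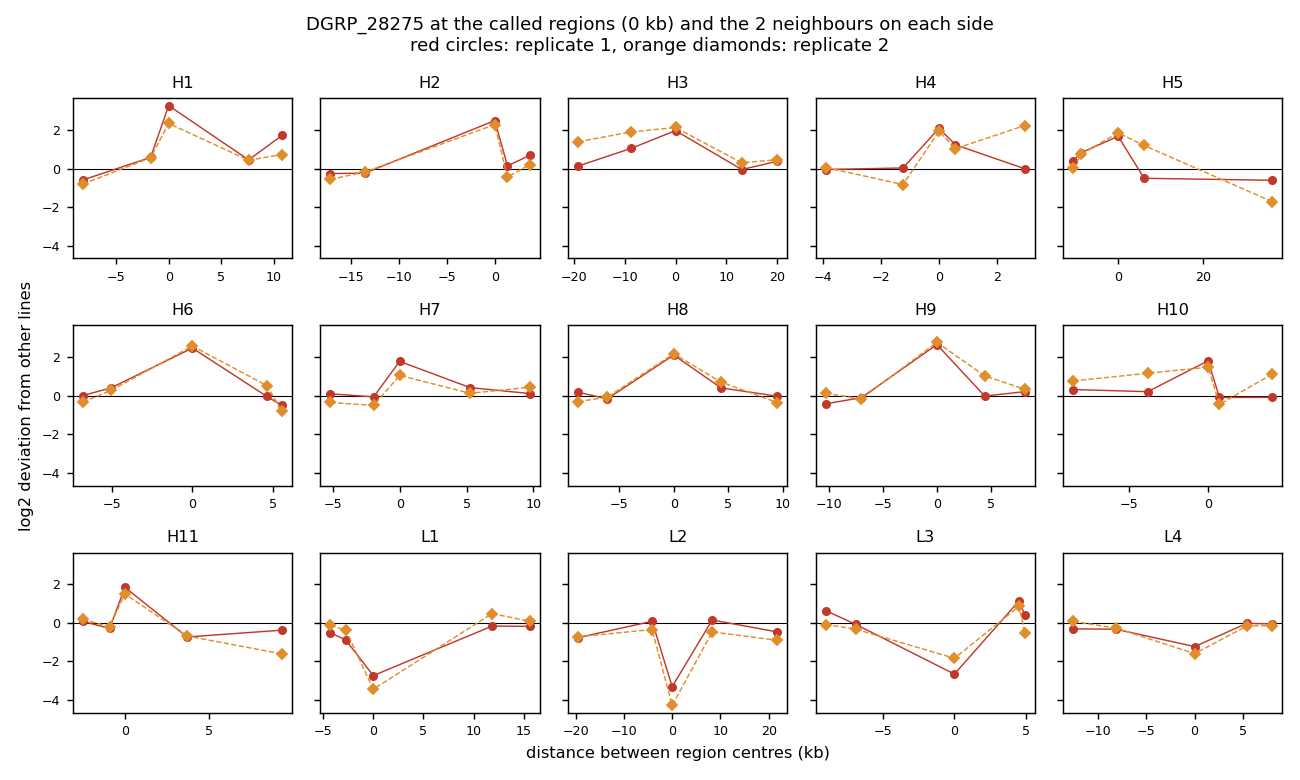
Log2 deviation of DGRP_28275 replicates 1 (circles) and 2 (diamonds) from the other lines at each called region, placed at 0 kb, and at the 2 regions on each side, by the distance between region centres in kb. The called region stands out from its neighbours in most panels, with same-way deviations of more than 1 log2 unit in an adjacent region beside H3 and H4. The called regions were chosen for their deviation and the neighbours were not, so this contrast adds no support.

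Counts outside the range of all other libraries, a description with no test, gave more low than high regions. Both DGRP_28275 libraries lay above all 29 others at 40 regions, or 0.13% of those tested, and below all of them at 133 regions, or 0.432%. With libraries scaled by total counts alone the numbers were 54 above and 83 below, so low regions outnumbered high ones under both scalings. With the first component removed the order turned, with 127 above and 70 below. The low regions had a median mean count of 145 over all libraries and the high ones 40.3, against 90.4 over all tested regions. Of the 40 regions 7 were called, and of the 133 regions 4 were. The others include 2L:3630885-3631216, with 4.75 and 2.89 CPM in the line against 9.22, 15.8 and 36.1 CPM in the others (edgeR adjusted p = 0.142), and 3L:468121-468603, with 7.54 and 3.80 CPM against 12.1, 24.7 and 48.1 CPM (edgeR adjusted p = 0.290). On the high side they include 3L:8686756-8687258, with 24.8 and 20.7 CPM in the line against 1.65, 8.11 and 18.7 CPM (edgeR adjusted p = 0.208), and 2R:17088501-17089003, with 24.9 CPM in each library of the line against 6.43, 10.4 and 19.6 CPM (edgeR adjusted p = 0.222). These 4 were chosen for their gap to the nearest other library and did not pass the test.

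The calls rest on both libraries of DGRP_28275. Without replicate 1 no region passed in edgeR, with 2461 at an unadjusted p under 0.05, and without replicate 2 none passed either, with 730. Each of these fits has 1 library of the line, which is assumed to vary like the other lines with 2. All 15 regions kept their direction in both cases, as they did under every alternative run. Both libraries deviated the same way at all 15, and the alternatives refit mostly the same counts, so the kept direction adds no support. The log2 fold change at L2 was -4.46 without replicate 1 and -3.34 without replicate 2. Over all alternatives, these fits included, it ran from 2.14 to 2.71 at H2, from 2.46 to 3.35 at H1 and from 1.18 to 1.83 at H7.

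Of the 8 lines with 2 libraries, DGRP_28275 had the pair whose deviations were most alike before any component was removed. Over regions above the median level, they deviated the same way in 68.3% of regions, against 36.1% to 63.8% with a median of 48.5% in the 7 other lines with 2 libraries. The correlation of their deviations across regions was 0.55, against -0.41 to 0.43. These values move with the first component, on which both libraries of the line scored low while those of 5 of the other 7 lines lay on opposite sides of 0. With that component removed, the share was 58.1%, against 53.4% to 64.1% with a median of 59.0%, and the correlation was 0.30, against 0.20 to 0.53. On that scale DGRP_28275 lay within the range of the other lines. Replicate 1 then had its highest correlation with replicate 2 of its own line. Replicate 2 had slightly higher ones with the libraries without the suffix of DGRP_28262, at 0.33, and of DGRP_28243, at 0.31. Regions share depth and library within such a comparison and are not replicates, so these correlations are descriptions.

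**Figure D3:**
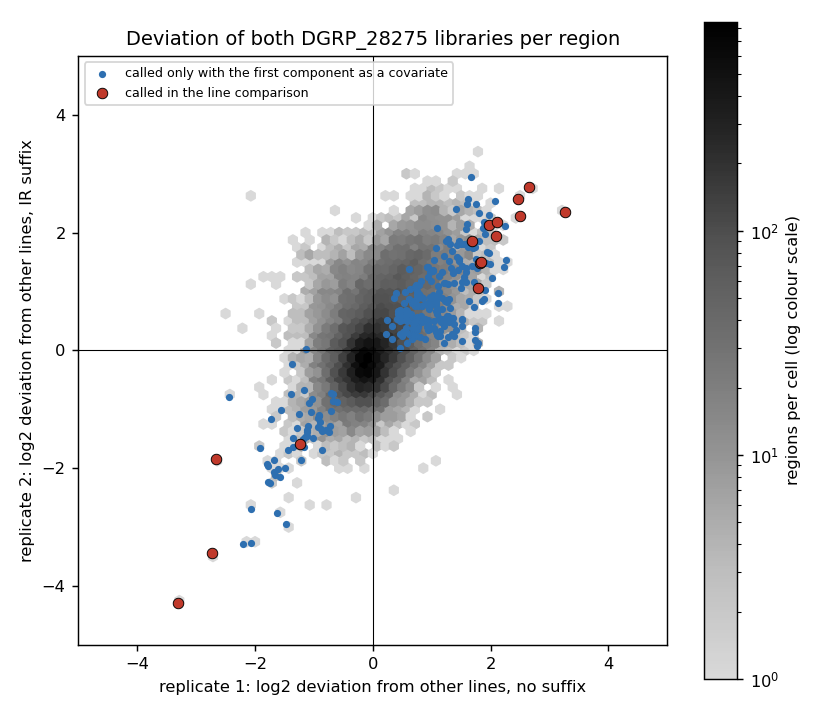
Log2 deviation from the other lines of DGRP_28275 replicate 2 (vertical) against replicate 1 (horizontal) for all 30773 tested regions, shaded by the number of regions per cell on a log scale, with regions called in the line comparison (red) and those called once the first component was a covariate (blue). The cloud leans toward the quadrants in which both libraries go the same way, which hold 66.9% of regions. The 15 called regions lie in these quadrants, some of them among regions that were not called.

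When the first component was added to the model as a covariate, the number of regions called for DGRP_28275 increased to 294, or 0.955% of those tested, with 234 higher (0.76%) and 60 lower (0.195%). The 15 regions were among them, each with the same direction. Of the 294, 199 differed by at least 2-fold and 22 by at least 4-fold. The count of 294 includes 21 of the 40 regions above all other libraries and 24 of the 133 below them. L2 had the smallest p here (log2 fold change -3.42, edgeR adjusted p = 6.08e-09), followed by H1 (2.87) and L1 (-2.96), both at an edgeR adjusted p of 1.54e-06. With 2 components as covariates the count was 4, namely H1, L1 and L2 of the 15 and 1 other region. H1, L1 and L2 thus passed in all 3 models, while the total number of regions called, these included, ranged from 4 to 294.

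**Figure D4:**
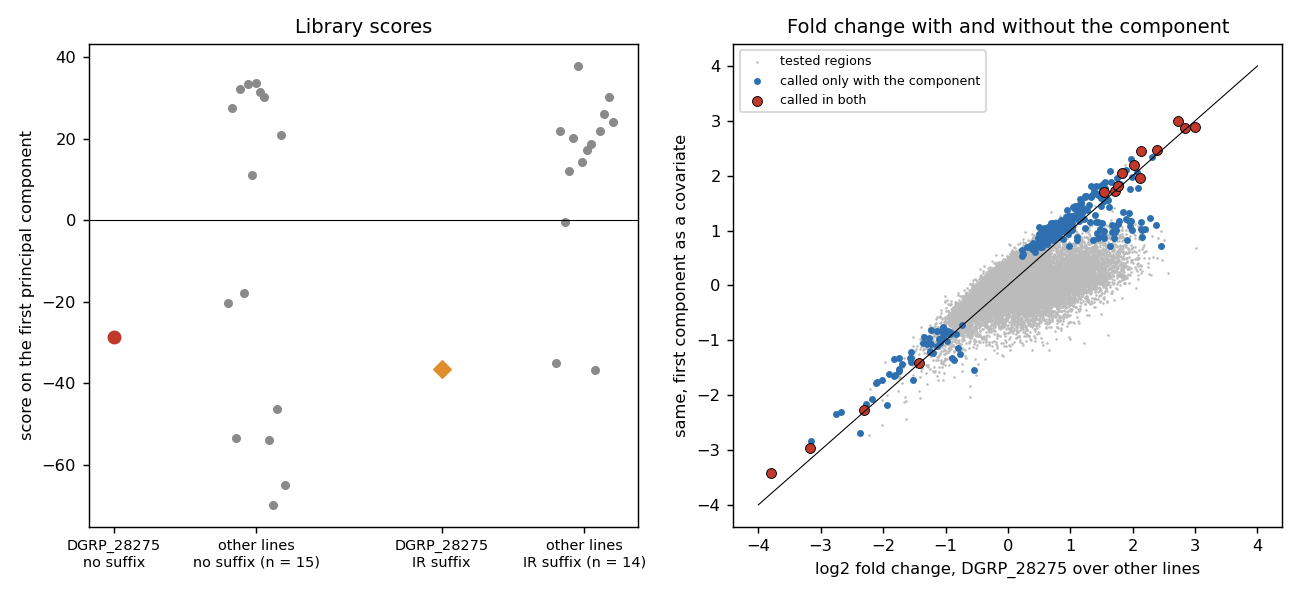
Left, score of each library on the first principal component, with DGRP_28275 beside the other lines of the same kind. Right, log2 fold change of DGRP_28275 over the other lines with the first component as a covariate (vertical) against that without it (horizontal) for all tested regions. Both DGRP_28275 libraries score below 0, and the 15 regions called in both fits (red) stay near the diagonal while many others are drawn toward 0.

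Of the 294 regions called with the component, all but the 15 passed with the component alone. The following were picked after their values were seen. At 3L:20617572-20617804 the line had 20.3 and 13.5 CPM, against 0.856, 4.76 and 8.88 CPM in the others, with a log2 fold change of 1.90 without the component (edgeR adjusted p = 0.0869) and 2.10 with it (edgeR adjusted p = 0.000154). At X:9793995-9794481 it had 12.8 and 7.45 CPM, against 17.8, 35.6 and 69.8 CPM, with -1.90 without the component (edgeR adjusted p = 0.133) and -1.61 with it (edgeR adjusted p = 0.000461). Neither overlapped the other libraries. On chromosome 4, at 4:1272168-1272764, the line had 86.2 and 84.7 CPM, against 2.38, 27.8 and 116 CPM, with 1.74 without the component (edgeR adjusted p = 0.0926) and 1.955 with it (edgeR adjusted p = 0.000349). There 3 other libraries were at or above the lower DGRP_28275 value. Regions of smaller p overlapped the others more widely. With the component, 2L:5805093-5805826 had an edgeR adjusted p of 0.000113, and 12 other libraries were at or above the lower DGRP_28275 value. At 3R:7808902-7809348 (edgeR adjusted p = 0.000154 with the component) 6 were.

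In this larger set, 26 pairs of adjacent calls lay within 10000 bp of each other, and 22 of these pairs changed in the same direction. Since 234 of the 294 calls were higher, most pairs would share a direction in any case, and an excess was not tested. The single run of 3 was on X, at 21460159-21461618, 21462156-21462569 and 21466439-21466794. DGRP_28275 had 91.9 and 107, 46.6 and 29.2, and 10.1 and 6.99 CPM at these regions, against medians of 53.3, 24.04 and 2.69 CPM in the other lines. The log2 fold changes with the component were 1.04 (SE 0.19), 1.06 (SE 0.18) and 1.80 (SE 0.31), with edgeR adjusted p of 0.0106, 0.00542 and 0.00570. At these regions 5, 11 and 9 of the 29 other libraries lay above the lower DGRP_28275 library, and the line was outside the range of the others in none.

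Set beside the 7 other lines with 2 libraries, DGRP_28275 had the fewest called regions. Its 15 compare with 31 to 166 and a median of 44 in those lines, each against the mean of its own 22 others. With the first component it had 294, against 307 to 958 with a median of 459. These comparisons share libraries, and the difference between lines in the count was not tested.

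By chromosome arm, 7 of the 15 called regions lay on 2L, 4 on 2R, 2 on X and 1 each on 3L and 3R. As shares of the tested regions these were 0.117% for 2L, 0.0718% for 2R, 0.0368% for X, 0.0157% for 3L and 0.014% for 3R. A difference between arms in these shares was not tested. In the model with the component, the share of tested regions called was 1.29% for arm 2L and 1.04% for 2R. It was 0.957% for 3L and 0.642% for 3R, and 2.02% for chromosome 4 and 0.865% for X. The chromosome 4 share rests on 5 regions. No arm passed the test for a different share of all counts in DGRP_28275. X had 17.5% of counts in replicate 1 and 15.3% in replicate 2, against 13.2% to 18.9% with a median of 17.01% in the others, and chromosome 4 had 0.800% and 0.656%, against 0.648% to 0.886%. The smallest p over the 6 arms was 0.608 by a two-sided exact permutation test over 240 choices of libraries, with an adjusted p of 0.900 for each arm, where 0.00417 was the smallest p possible. The 2 libraries of the line thus differed more from each other in the share of X than their mean did from the other lines.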

How the data were processed

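ATAC-seq libraries of 23 DGRP lines were analysed, 8 lines with 2 libraries and 15 with 1. The other 15 samples of the series are not analysed here. The authors deposited raw read counts per region over 1 merged set of regions. Bowtie2, MACS2, featureCounts, DESeq2 and dm3 are named in the submitters' processing notes, with no versions. How duplicates, multi-mapped reads and the Tn5 offset were handled, and whether region starts count from 0 or 1, is not given in the sources.

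A region was tested if at least 2 libraries reached the CPM that equals 10 counts in a library of median size. Counts were fitted with edgeR 4.0.16 in R 4.3.3 (TMM, robust quasi-likelihood F-test) with terms for line and suffix in all 31 libraries, which leaves 7 residual degrees of freedom. The DGRP_28275 coefficient was set against the mean of the other 22, with Benjamini-Hochberg adjustment at 0.05. A prior count of 2 was added for log2 CPM. The SE is the fold change divided by the square root of F. Principal components were taken from log2 CPM over regions above the median level. The line shared by the 2 libraries pairs them. Shares by arm were tested by exact permutation within library kind. The fit was checked on simulated counts with shifts planted in DGRP_28275. All libraries there were drawn from a shared mean profile, with no principal component, suffix effect or other line differences. The check thus cannot tell how the calls depend on the component.

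The text names, for each direction, the 8 called regions of smallest p and the 5 farthest outside the other libraries with a mean count of at least 50. It also names the 5 of smallest p with the component among regions called both with and without it, and runs of 3 calls of the main comparison. All called regions are given, so H9, H10 and H11 go beyond this rule. The regions named as called with the component alone, the run of 3 on X and the first region not called go beyond it too. The rule, tests and alternatives were chosen with earlier results of these data known. Alternatives were other tests (DESeq2 1.42.0, limma 3.58.1), scalings, filters, covariates and left-out libraries.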

Additional observations from a re-analysis of the deposited data

How the results depend on the processing

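The 15 called regions kept their direction under every alternative run. These runs refit mostly the same counts, so the kept direction adds no support. Of the 671 values, 99 no longer passed the threshold. H10 fell short of it in 15 of 44, and H11 and L4 in 16 of 45 each. The cause of the changes below was not tested. DESeq2 called 58 (25 higher, 33 lower), and the count was 31 with limma voom, 25 with total counts only and 5 at an adjusted p of 0.01. It was 294 with the first component, 339 with that component taken from the 29 other libraries, 4 with 2 components (1672 at an unadjusted p under 0.05 in edgeR), and 398 with the component in the 16 libraries of the 8 lines with 2, a setting chosen after seeing the data. Leaving out single libraries gave 0 to 16, with 0 without either library of DGRP_28275 and 9 without replicate 1 of DGRP_28123. Without the suffix term, that is with no replicate block, 15 regions passed, 14 of them the same. Regions outside the range of the other libraries numbered 173, and between 174 and 1336 when libraries were left out (an alternative chosen after seeing the data). The count was 1336 without replicate 1 and 1210 without replicate 2 of the line. Leaving out a library loosens the condition on the same values, so this count cannot fall, and its rise says nothing about stability. The share of regions deviating the same way was 66.88% over all regions and 58.09% with the component removed, against 68.3%, and the correlation was 0.5175 and 0.3028, against 0.5495. No arm passed the test under any alternative run. Some values rest on few counts. The mean count over the 31 libraries was 17.3 at H6 and 18.4 at H9, and DGRP_28275 itself had 18 and 20 counts at L3. The genome sequence of the line was not examined here.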
